A study of Mus musculus with 6 samples.

Results

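The proteasome is the protease complex that degrades ubiquitin-tagged proteins, and its genes were followed across all 6 libraries of a bulk RNA-Seq comparison of embryonic mouse cortex. The genes were chosen by name alone, as protein-coding genes of the GENCODE M21 annotation whose symbol starts with Psma, Psmb, Psmc, Psmd, Psme, Psmf or Psmg followed by a digit. The annotation holds 50 such genes, and 47 of them were among the 17068 genes of the count table. Psmb9, Psmb11 and Psme2b were not analysed here. By function, 46 of the 47 were placed in 7 groups: 8 alpha and 7 constitutive beta subunits of the 20S core, 2 immunoproteasome beta subunits, 9 genes of the 19S base, 8 of the 19S lid, 5 activators and inhibitors, and 7 assembly factors. The remaining gene, Psmc3ip, encodes a meiotic recombination factor that binds a proteasome ATPase and shares only the name, so it was counted among the 47 but left out of the groups. The samples were lateral cortex of female c57/bl6 embryos at E12.5. Controls 1, 2 and 4 carried Foxp1 fl/+ and control 3 carried Foxp1 fl/fl, all without Cre, and 2 embryos were Foxp1 fl/fl with Emx1Cre, which recombines floxed alleles in progenitors of the dorsal telencephalon and not in vessels, blood or ventral cells of the same dissection. Every embryo therefore carried at least 1 floxed Foxp1 allele, and control 3 was the only control that matched the libraries labelled Foxp1cKO at the floxed locus.

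The 20S core is a barrel of stacked rings, with outer rings of alpha subunits that gate entry and inner rings of beta subunits, of which Psmb5, Psmb6 and Psmb7 carry the protease activities. The 19S regulatory particle caps the barrel: its base holds the ring of ATPases Psmc1 to Psmc6, which unfold substrates, and its lid holds the deubiquitinase Psmd14. Psmb8 and Psmb10 replace catalytic beta subunits in immune and interferon-treated cells, Psme1 to Psme4 are alternative caps, Psmf1 is an inhibitor, and Psmg1 to Psmg4, Psmd5, Psmd9 and Psmd10 are chaperones that help to assemble the particles. The transcription factor Nfe2l1 can raise the genes of the complex together when degradation is blocked. In dividing cells such as cortical progenitors, the proteasome removes cell cycle regulators and, through the VHL ligase, Hif1a.

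Libraries held 50076008 to 78346979 counts, so that 3 counts, the floor used here, were 0.0381 to 0.0596 CPM (counts scaled to a common library size with edgeR's TMM factors). Foxp1 had 59.7, 60.8, 71.2 and 79.1 CPM in controls 1 to 4 and 83.2 and 76.8 CPM in the libraries labelled Foxp1cKO 1 and 2. The count over the whole gene thus did not mark the deletion, and such a count mixes the floxed exons with all others, so the groups are named here by their labels. Among the cell type markers counted, 1 gene passed the adjusted threshold: Flt1, a vessel receptor, was at 12.5 to 18.1 CPM in the controls and 44.6 and 54.2 CPM in the libraries labelled Foxp1cKO (log2 fold change 1.64, standard error 0.16, edgeR adjusted p = 0.0179). Other endothelial markers did not all follow. Pecam1, Emcn and Kdr had log2 fold changes of 0.65, 0.52 and 0.18, and Cdh5, Cldn5 and Tek had 0.004, -0.05 and -0.35. The cortical markers Pax6 (171 to 245 CPM) and Emx1 (68.8 to 135 CPM) were present in every library. The libraries also differed in other cell types. The summed level of 7 red-cell markers was 1303, 1005, 1049 and 3400 CPM in controls 1 to 4 and 3719 and 4001 CPM in the libraries labelled Foxp1cKO. The ventral telencephalic gene Nkx2-1 was at 13.2 CPM in control 3 and between 0.216 and 1.07 CPM in the other 5 libraries. Fewer cells of a type and less RNA per cell cannot be told apart in bulk samples.

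The comparison of the groups addressed whether proteasome transcripts differed in the cortex labelled Foxp1cKO. Most were lower, by a small amount, and no single gene passed the adjusted threshold in edgeR's quasi-likelihood test. The median log2 fold change of the 47 genes was -0.22, and 44 of 47 were below 0, against a median of -0.0044 and 50.7% below 0 over all 17068 genes. Abundant genes as a whole leaned slightly lower, with a median of -0.03 and 57.6% below 0 among the 10099 genes with a mean of at least 10 CPM. After Benjamini-Hochberg adjustment over all genes, 0 of the 47 had an adjusted p under 0.05, against 0.152% of all genes (26 genes, none of them lower). The lowest adjusted p was 0.236. At an unadjusted p under 0.05, 26 of the 47 were lower, against a background of 6.5% of all genes and 9.22% of those with a mean of at least 10 CPM. At that threshold 0 were higher, against 6.53% of all genes. Both libraries labelled Foxp1cKO lay below all 4 controls for 31 of 47 genes. Of all genes 13.1% did so, and of those with a mean of at least 10 CPM 17.3%. They lay above all 4 controls for 0 of 47, against 11.5% of all genes. DESeq2 with the same model called 9 of the 47 lower at an adjusted p under 0.05, where it called 1.27% of all genes with an adjusted p lower, and limma on the variance-stabilized values called 0. Without the library labelled Foxp1cKO 1, 1 labelled library is left against 4 controls, so counts at a threshold cannot be compared with the full fit. In that fit 44 genes were still below 0, with a median log2 fold change of -0.20. Without the library labelled Foxp1cKO 2 the median was -0.30. The library labelled Foxp1cKO 1 had the lowest total, 50076008 counts.

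**Figure D1:**
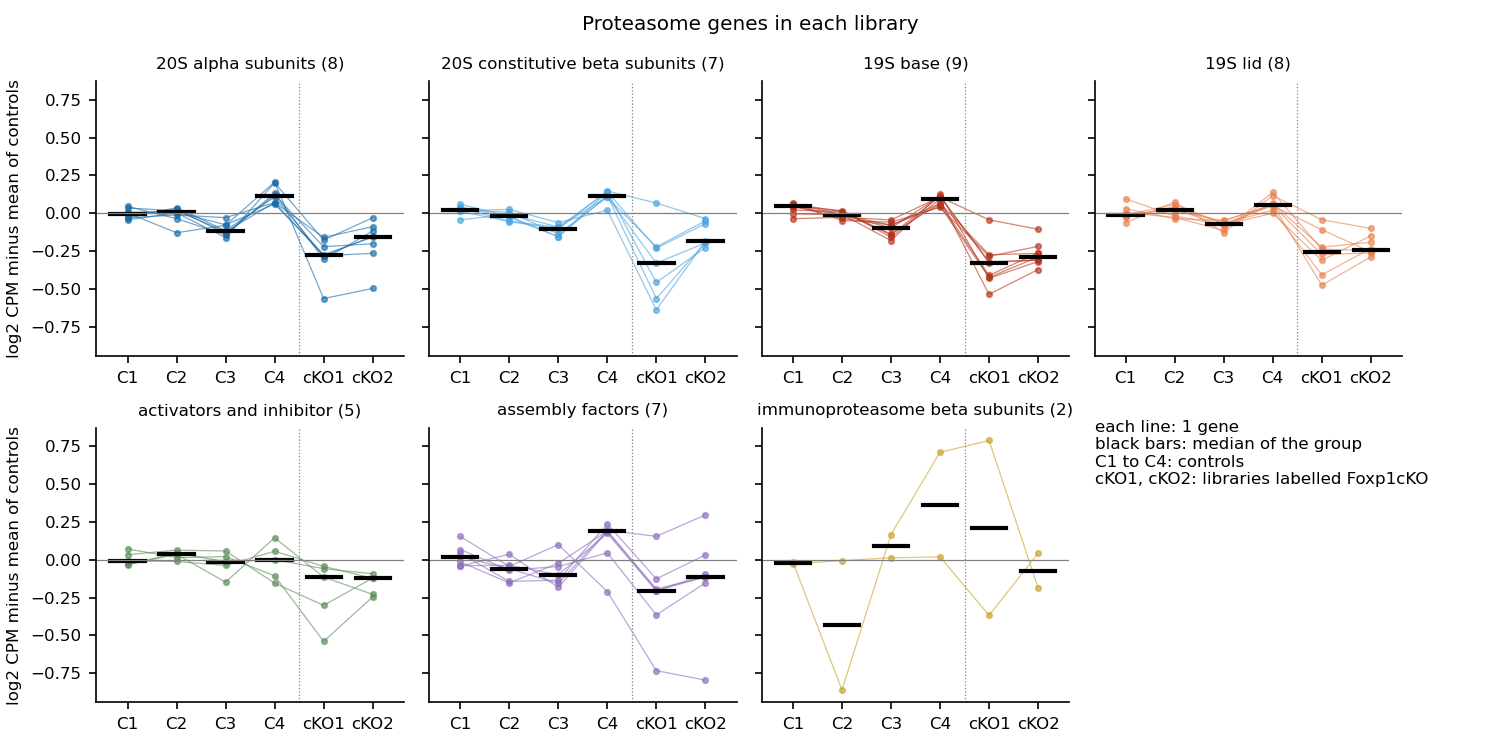
Log2 CPM of each grouped proteasome gene minus its mean over the 4 controls (y axis), in controls 1 to 4 and the libraries labelled Foxp1cKO 1 and 2 (x axis, in no order within a group), with 1 line per gene and the group median as a black bar. In the 19S base the median was -0.33 and -0.29 in the libraries labelled Foxp1cKO, and in the controls it ran from -0.10 to 0.09, while the 2 immunoproteasome genes showed no common direction.

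Of the 7 groups, the 19S base had the lowest median. All 9 base genes were below 0, with a median log2 fold change of -0.32, 8 of 9 had an unadjusted p under 0.05, and 8 of 9 had both libraries labelled Foxp1cKO below every control. Psmc5 (ENSMUSG00000020708.12, GRCm38 chr11:106256154-106263120), an ATPase of the ring, was at 118, 115, 102 and 121 CPM in controls 1 to 4 and at 78.4 and 87.8 CPM in the libraries labelled Foxp1cKO. The groups did not overlap, and the labelled mean was 72.9% of the control mean, a log2 fold change of -0.45 (standard error 0.10, edgeR adjusted p = 0.236, DESeq2 adjusted p = 0.00515). Psmd2 (ENSMUSG00000006998.15, GRCm38 chr16:20651652-20663414), a large scaffold subunit that docks ubiquitin receptors, had the highest count of the base, with 377, 364, 347 and 378 CPM in the controls and 273 and 300 CPM in the libraries labelled Foxp1cKO. Its log2 fold change was -0.36 (standard error 0.08, edgeR adjusted p = 0.242, DESeq2 adjusted p = 0.00374). A near-identical copy, Gm5422, covers 98.2% of the length of its longest coding transcript, so reads may be split between them. The ATPase Psmc4 was at 166, 156, 152 and 167 CPM in the controls and 120 and 133 CPM in the libraries labelled Foxp1cKO. The ATPase Psmc1 was at 160, 160, 150 and 174 CPM in the controls and 129 and 130 CPM in the libraries labelled Foxp1cKO. Psmc3 ran from 139 to 172 CPM in the controls and was at 117 and 126 CPM in the others, and Psmc2 ran from 108 to 129 CPM in the controls and was at 95.3 and 96.6 CPM in the others. For each of these ATPases the highest labelled library was below the lowest control, which was control 3.

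Psmc6, the remaining ATPase of the ring, was picked out after its values were seen. It had 195, 197, 194 and 216 CPM in the controls and 194 and 186 CPM in the libraries labelled Foxp1cKO, so that 1 of the labelled libraries lay within the controls, and its log2 fold change was -0.08 (standard error 0.08, edgeR adjusted p = 0.702). The ratio of Psmc5 to Psmc6 counts was 0.602, 0.585, 0.524 and 0.562 in controls 1 to 4 and 0.403 and 0.472 in the libraries labelled Foxp1cKO. The corresponding ratios of Psmc1, Psmc2, Psmc3 and Psmc4 were also lower in both labelled libraries than in every control. Since Psmc6 was chosen from these values, the 5 ratios are a description and no test. The assembled ring holds each of the 6 ATPases in equal number. The non-ATPase base genes Psmd1, a scaffold, and Psmd4, a ubiquitin receptor, had log2 fold changes of -0.27 and -0.25.

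In the 19S lid all 8 genes were below 0, with a median of -0.24, and 6 of 8 had an unadjusted p under 0.05. Psmd13 (ENSMUSG00000025487.15, GRCm38 chr7:140881968-140898643), a structural lid subunit, was at 123, 127, 121 and 130 CPM in the controls and 89.8 and 102 CPM in the libraries labelled Foxp1cKO, a log2 fold change of -0.38 (standard error 0.08, edgeR adjusted p = 0.236, DESeq2 adjusted p = 0.00536). Of its exon length, 10.1% overlaps Sirt3 on the other strand. Psmd6 was at 112, 117, 108 and 114 CPM in the controls and 85.1 and 96.0 CPM in the others. Psmd7, the partner of the deubiquitinase, was at 125, 120, 119 and 127 CPM in the controls and 102 and 102 CPM in the others. These 3 lid genes, with Psmc1 to Psmc5 and Psmd2, made up the 9 genes that DESeq2 called, so all its calls among proteasome genes were in the 19S particle. The deubiquitinase itself, Psmd14, ranged from 158 to 175 CPM in the controls and was at 143 and 146 CPM in the libraries labelled Foxp1cKO, with a log2 fold change of -0.21 (standard error 0.07, edgeR adjusted p = 0.324). At the other end, Psmd3 was at 108 to 128 CPM in the controls and at 114 and 110 CPM in the others, within the range of the controls. Psmd11, the least abundant lid transcript per length, was at 104 to 113 CPM in the controls and 101.1 and 91.3 CPM in the others.

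**Figure D2:**
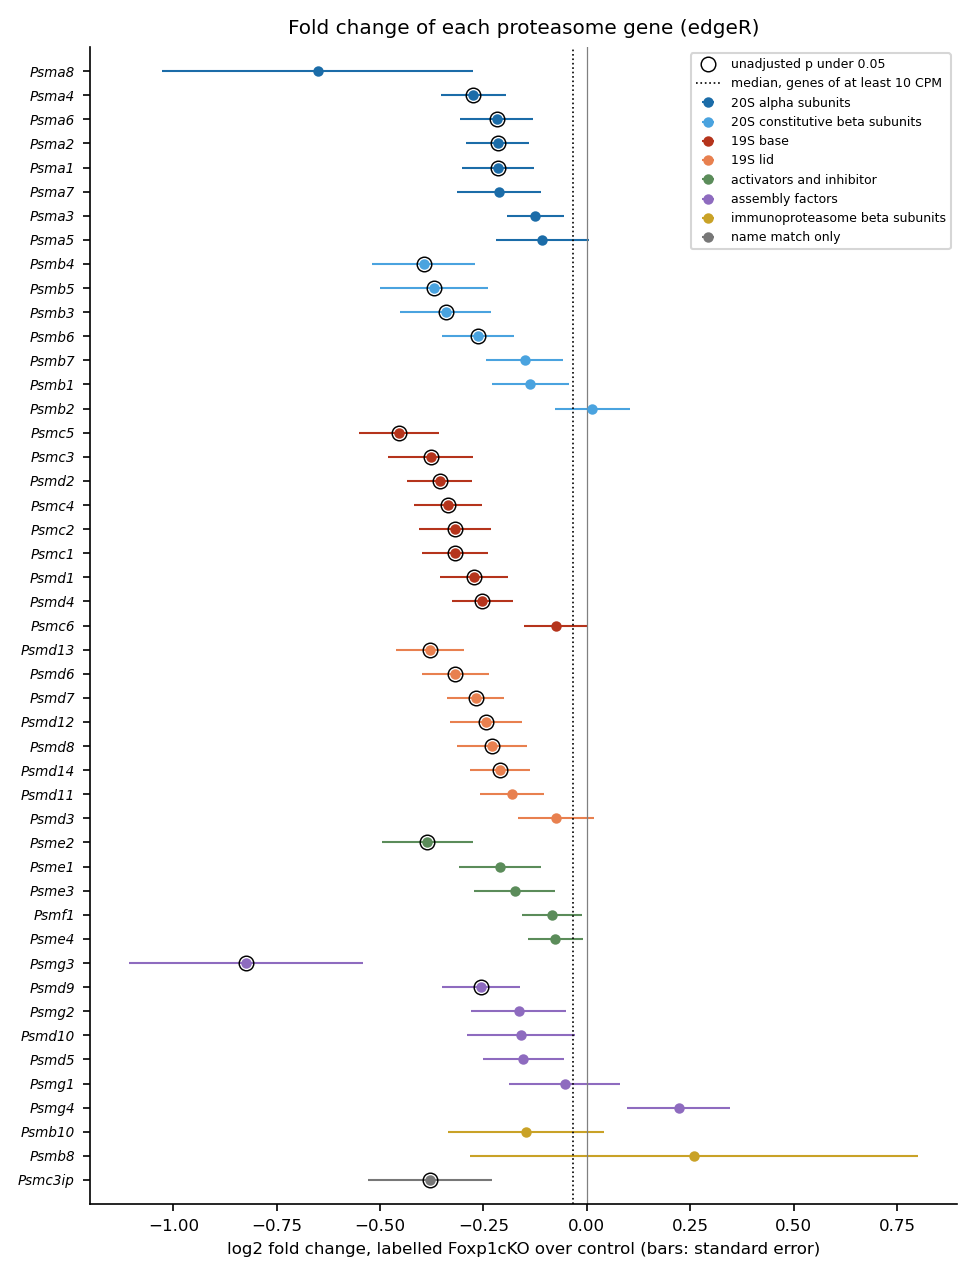
Log2 fold change of each of the 47 genes in the libraries labelled Foxp1cKO (n = 2) over the controls (n = 4) on the x axis, with the standard error as a bar, ordered by functional group on the y axis. Open circles mark the 26 genes with an unadjusted p under 0.05 in edgeR, all to the left of 0, and the dotted line marks the median of genes with at least 10 CPM.

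The sequence around RefSeq starts of the genes was examined for what the members share, since most of their transcripts were lower together. RefSeq promoter windows of 300 bases (250 before and 50 after the start, build GRCm38.p6) were matched by symbol for 39 of the 47 genes. The first 250 bases of 4 are shown, 5′ to 3′ on the strand of the gene. They are the 3 genes with the lowest unadjusted p, and Psmb5. The window of Psmb5, a catalytic subunit, holds the antioxidant core, as does that of Psmb6, which is not shown. Capitals mark every match, on either strand, to the 5 short motifs searched.
Psmc5 (chr11:106255935-106256184, plus strand): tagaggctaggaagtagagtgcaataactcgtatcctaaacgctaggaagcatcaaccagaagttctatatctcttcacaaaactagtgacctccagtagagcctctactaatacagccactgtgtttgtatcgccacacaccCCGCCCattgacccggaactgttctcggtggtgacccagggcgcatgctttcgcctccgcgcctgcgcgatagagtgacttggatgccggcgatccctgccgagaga
Psmd13 (chr7:140882144-140882393, plus strand): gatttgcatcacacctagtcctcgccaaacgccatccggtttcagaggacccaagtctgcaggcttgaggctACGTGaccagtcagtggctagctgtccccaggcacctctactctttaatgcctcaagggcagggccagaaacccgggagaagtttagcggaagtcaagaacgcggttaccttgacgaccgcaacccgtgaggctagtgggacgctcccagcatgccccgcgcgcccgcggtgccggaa
Psmd2 (chr16:20651402-20651651, plus strand): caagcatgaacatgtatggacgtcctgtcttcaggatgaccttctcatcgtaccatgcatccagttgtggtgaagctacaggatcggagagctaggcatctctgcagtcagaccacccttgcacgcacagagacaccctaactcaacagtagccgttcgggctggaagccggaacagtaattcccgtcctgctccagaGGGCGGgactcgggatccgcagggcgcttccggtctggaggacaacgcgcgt
Psmb5 (chr14:54617996-54618245, minus strand): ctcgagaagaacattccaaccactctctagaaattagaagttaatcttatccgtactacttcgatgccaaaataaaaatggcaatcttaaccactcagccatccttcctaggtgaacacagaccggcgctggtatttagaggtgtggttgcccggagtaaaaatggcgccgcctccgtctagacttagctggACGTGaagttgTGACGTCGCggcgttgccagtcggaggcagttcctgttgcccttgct
In these 4, the capitals are a GC box in Psmc5 and in Psmd2, a hypoxia core in Psmd13, and a hypoxia core followed by an antioxidant core in Psmb5. The RefSeq start used for a window can differ from the GENCODE start of the gene. The Psmd13 bases shown begin at 140882144, inside the GENCODE span, which begins at 140881968. They are therefore not upstream of the whole annotated gene, and the same holds for some other members, such as Psmd9.

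Matches were counted per gene over the whole 300 bases on both strands, and matches of different motifs may overlap. The GC box GGGCGG, bound by Sp factors, was present for 22 of 39 proteasome genes (56.4%) and for 38.2% of all 27025 genes with a window. The median GC content of the windows was 58.2% for the proteasome genes and 52.7% for all windows. The antioxidant core TGACNNNGC, which Nfe2l1 and Nfe2l2 can bind, was present for 6 of 39 (15.4%, Psmb5, Psmb6, Psmc6, Psmd12, Psmd9 and Psme4) and for 13.99% of all genes. The NF-Y box CCAAT was present for 33.3% against 41.1%, and the hypoxia core ACGTG for 20.5% against 21.8%. The forkhead core TGTTTAC, of the kind that Foxp proteins bind, was present for 0 of 39 against 4.05% of all genes, which says only that these letters are not in these windows.

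Of the 8 alpha subunits of the 20S core, all were below 0 (median log2 fold change -0.21) and 4 had an unadjusted p under 0.05. Psma6, the most abundant alpha transcript per length of its exons, was at 116, 121, 109 and 127 CPM in the controls and 97.05 and 106 CPM in the libraries labelled Foxp1cKO, a log2 fold change of -0.22 (standard error 0.09, edgeR adjusted p = 0.370). The labelled libraries lay below every control, the nearer of them by less than the controls differed among themselves. Psma1, Psma2 and Psma4, which also form the outer ring, had the other unadjusted p-values under 0.05, with log2 fold changes between -0.21 and -0.27. Psma3, Psma5 and Psma7 were at -0.12, -0.11 and -0.21. Psma8, an alpha subunit of germ cells that replaces Psma7 in the testis, was close to the floor in this tissue, at 0.145 to 0.191 CPM in the controls and 0.0994 and 0.105 CPM in the others, from 5 to 15 counts per library. Its log2 fold change of -0.65 (standard error 0.38) therefore rested on few reads.

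Of the 7 constitutive beta subunits, 6 were below 0 (median -0.26) and 4 had an unadjusted p under 0.05. Among the catalytic subunits, Psmb5 (ENSMUSG00000022193.7, GRCm38 chr14:54614119-54618022), which carries the chymotrypsin-like activity, was at 40.2, 38.1, 34.7 and 41.8 CPM in the controls and 26.1 and 33.8 CPM in the libraries labelled Foxp1cKO. Its log2 fold change was -0.37 (standard error 0.13, edgeR adjusted p = 0.332), and the difference between the labelled libraries was larger than the range of the controls. A near-identical copy, Gm3375, covers 88.4% of its longest coding transcript. Psmb6, with caspase-like activity, was at 140, 131, 128 and 147 CPM in the controls and 108 and 119 CPM in the others (log2 fold change -0.26, standard error 0.09, edgeR adjusted p = 0.310). Psmb7, with trypsin-like activity, was at 140, 143, 135 and 159 CPM in the controls and 123 and 137 CPM in the others, and its groups overlapped (-0.15, standard error 0.09, edgeR adjusted p = 0.525). Psmb2, the most abundant beta transcript per length, was at 104, 98.9, 95.6 and 114 CPM in the controls and 108 and 100 CPM in the others, within the controls, and was the 1 constitutive core gene above 0 (0.01, standard error 0.09). Psmb1, the least abundant beta transcript per length, was at 110 to 131 CPM in the controls and 104 and 117 CPM in the others. Of the structural subunits named after their values were seen, Psmb4 was at 118 to 125 CPM in the controls and 78.9 and 108 CPM in the others, and Psmb3 was at 70.6 to 86.7 CPM in the controls and 57.3 and 67.2 CPM in the others, both without overlap.

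The immunoproteasome subunits were low in this tissue, and their differences between the groups had opposite signs and were smaller than their standard errors. Psmb8, which takes the place of Psmb5, had 14, 7, 19 and 31 counts in controls 1 to 4 and 21 and 15 counts in the libraries labelled Foxp1cKO, or 0.113 to 0.394 CPM against 0.417 and 0.198 CPM. Its log2 fold change of 0.26 had a standard error of 0.54. Psmb10, which takes the place of Psmb7, was at 3.46, 3.51, 3.55 and 3.57 CPM in the controls and 2.72 and 3.63 CPM in the others (-0.15, standard error 0.19, edgeR adjusted p = 0.775). Divided by the length of the exons, Psmb8 made up 0.169% ± 0.073 (SD, n = 4) of the sum of Psmb8 and Psmb5 in the controls and 0.289% ± 0.190 (SD, n = 2) in the libraries labelled Foxp1cKO (exact permutation test, two-sided, p = 0.40). Psmb10 made up 4.69% ± 0.29 (SD, n = 4) of its sum with Psmb7 in the controls and 4.65% ± 0.54 (SD, n = 2) in the others (exact permutation test, two-sided, p = 0.933). Another pair compared in the same way, Psma8 in its sum with Psma7, gave 0.143% ± 0.010 (SD, n = 4) in the controls and 0.105% ± 0.005 (SD, n = 2) in the others, without overlap (exact permutation test, two-sided, p = 0.133), from the few Psma8 counts given above.

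All 5 activators and inhibitors were below 0, with a median of -0.17, and 1 had an unadjusted p under 0.05. That gene was Psme2, a subunit with Psme1 of the interferon-inducible cap, named after its values were seen, which was at 34.2, 32.9, 33.0 and 30.2 CPM in the controls and 22.4 and 27.4 CPM in the libraries labelled Foxp1cKO (-0.39, standard error 0.11, edgeR adjusted p = 0.279). Psme1 was at 40.8 to 47.4 CPM in the controls and 36.8 and 41.7 CPM in the others, with overlap. In these cap genes control 4 was the lowest control, whereas it was the highest control for 38 of the 47 proteasome genes. Psme3, the cap of nuclear proteasomes and the most abundant of the group per length, was at 159, 167, 147 and 181 CPM in the controls and 151 and 139 CPM in the others (-0.17, standard error 0.10). Psme4, a large nuclear cap, was at 285 to 300 CPM in the controls and 280 and 273 CPM in the others, and Psmf1, the inhibitor, was at 48.8 to 52.0 CPM in the controls and 48.5 and 46.0 CPM in the others. In both, the labelled libraries lay just below the lowest control, with log2 fold changes of -0.08.

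Of the 7 assembly factors, 6 were below 0 (median -0.16) and 2 had an unadjusted p under 0.05. Psmg3, a chaperone of the alpha ring, was counted at only 0.614, 0.531, 0.590 and 0.470 CPM in the controls and 0.318 and 0.303 CPM in the libraries labelled Foxp1cKO, from 16 to 43 counts per library (-0.82, standard error 0.28, edgeR adjusted p = 0.318). Of its annotated exon length, 9.68% lies under another gene on the same strand, which union counting leaves out. Psmd9, a chaperone of the base, was at 35.4 to 38.9 CPM in the controls and 28.8 and 33.4 CPM in the others (-0.26, standard error 0.09, edgeR adjusted p = 0.343), and 25.5% of its exon length overlaps a gene on the other strand. Psmg4, the partner of Psmg3, was the most abundant assembly factor per length and had the opposite sign, with 18.0, 17.1, 15.9 and 20.3 CPM in the controls and 19.8 and 21.8 CPM in the others (0.22, standard error 0.13, edgeR adjusted p = 0.487). Its groups overlapped through control 4. Psmg1, Psmg2, Psmd5 and Psmd10 had log2 fold changes between -0.05 and -0.16, each with overlap. Psmc3ip, the gene included by name only, was at 21.2 to 28.5 CPM in the controls and 17.03 and 20.4 CPM in the others (-0.38, standard error 0.15, edgeR adjusted p = 0.364).

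Levels within the complex were compared as CPM per kilobase of the union of annotated exons, averaged over the 4 controls. All 31 genes of the constitutive 20S core and the 19S particle lay above the 75th percentile of all genes on this scale. The median of the 47 was 37.0 CPM per kilobase, against 4.60 over the 17047 genes with a length. Within the constitutive core the level ran from 26.5 for Psmb1 to 95.8 CPM per kilobase for Psma6, a 3.62-fold range, and within the 19S particle from 17.1 for Psmd11 to 90.7 CPM per kilobase for Psmd2, a 5.31-fold range. The assembly factors reached 32.2 CPM per kilobase at most, in Psmg4, and the caps 55.5, in Psme3, with the inhibitor Psmf1 at 7.77. The 4 genes under the median of all genes were Psma8 (0.0649), Psmb8 (0.0734), Psmg3 (0.191) and Psmb10 (2.07 CPM per kilobase). The order within a group depended on the length used: with the longest coding transcript in place of all exons, the highest core gene was Psmb6, at 171 CPM per kilobase, and the range within the core was 4.41-fold.

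**Figure D3:**
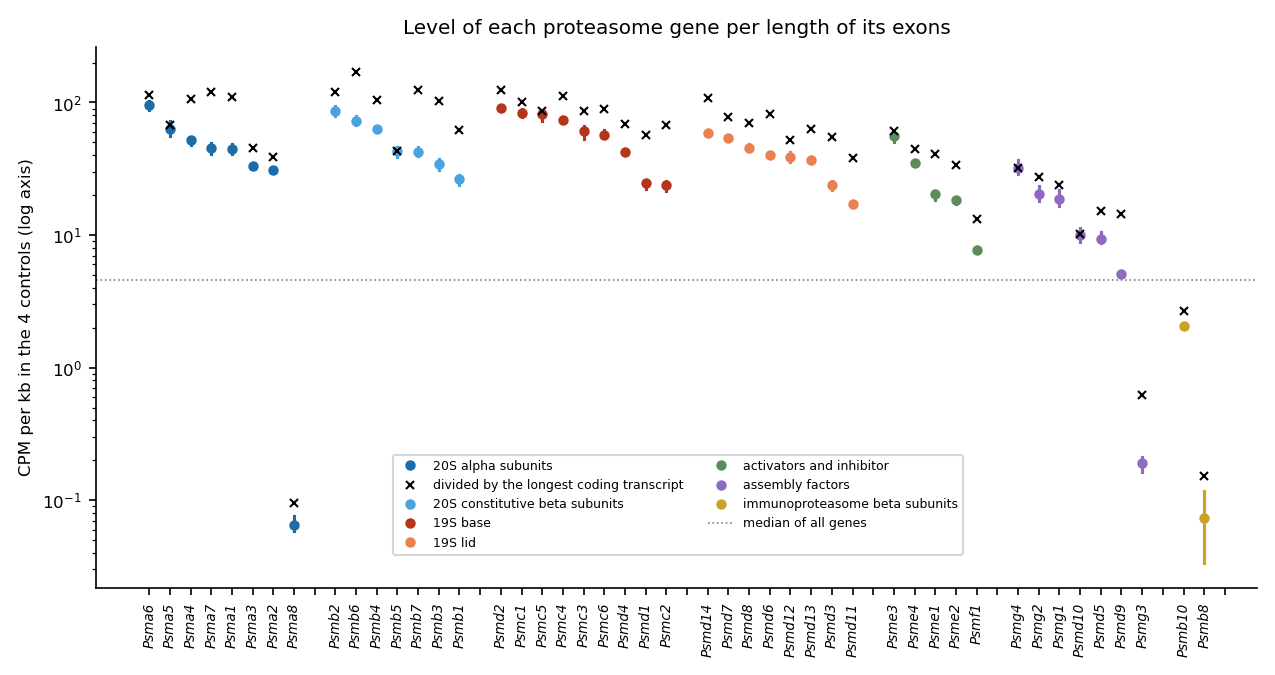
Mean level of each grouped gene in the 4 controls, as CPM per kilobase of exon on a log axis (y), by gene and functional group (x), with the range of the controls as a bar and crosses for the level per kilobase of the longest coding transcript. The 14 constitutive core genes lie between 26.5 and 95.8 CPM per kilobase, and Psma8, Psmb8, Psmg3 and Psmb10 lie under the dotted median of all genes (4.60).

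Summed over its 17 genes, the 19S particle had 2609, 2571, 2411 and 2705 CPM in controls 1 to 4 and 2086 and 2170 CPM in the libraries labelled Foxp1cKO, or 82.7% of the control mean. The constitutive 20S core had 1588, 1576, 1467 and 1704 CPM in the controls and 1311 and 1438 CPM in the others, or 86.8%. The 12 activators, inhibitors and assembly factors had 772, 788, 748 and 816 CPM in the controls and 712 and 718 CPM in the others, or 91.5%. In each sum the labelled libraries lay below every control (exact permutation tests, two-sided, p = 0.133 each, the smallest this design allows). The ratio of the 19S to the 20S sum was 1.63 ± 0.03 (SD, n = 4) in the controls and 1.55 ± 0.06 (SD, n = 2) in the others and overlapped between the groups (exact permutation test, two-sided, p = 0.267). The ratio of the base to the lid sum was 1.58 ± 0.03 (SD, n = 4) in the controls and 1.51 ± 0.02 (SD, n = 2) in the others, without overlap (exact permutation test, two-sided, p = 0.133). The ratio of the core and 19S genes to the activators, inhibitors and assembly factors was 5.32 ± 0.12 (SD, n = 4) in the controls and 4.90 ± 0.18 (SD, n = 2) in the others, also without overlap (exact permutation test, two-sided, p = 0.133).

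**Figure D4:**
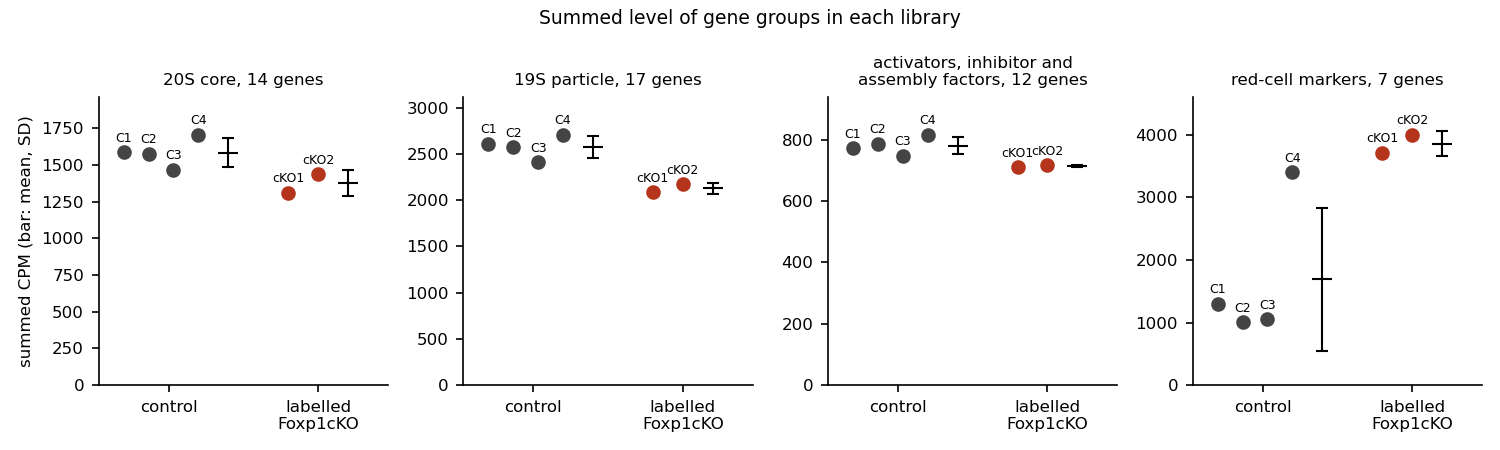
Summed CPM (y axis, from 0) of 3 groups of proteasome genes and of 7 red-cell markers in each library (x axis), with the mean and SD of each group beside the points. The proteasome sums are lowest in the libraries labelled Foxp1cKO and highest in control 4. The red-cell sum is 3400 CPM in control 4, 3719 and 4001 CPM in the libraries labelled Foxp1cKO, and 1005 to 1303 CPM in the other controls.

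The controls were not interchangeable for these genes. Control 3 was the lowest control for 36 of the 47 genes and control 4 the highest for 38, and the median gene was 0.21 higher on the log2 scale in control 4 than in control 3. Over all genes that median was 0.035. In control 4, 3 of the 47 were lower than in control 3, against 46.8% of all genes. Ranks among the controls were not counted over all genes. Control 3 is the Foxp1 fl/fl control. The 8 ventral telencephalic markers summed to 261, 386, 866 and 293 CPM in controls 1 to 4 and to 563 and 419 CPM in the libraries labelled Foxp1cKO. Summed, the 9 dorsal progenitor markers were lowest in control 3 and highest in control 4 (2757, 2658, 2125 and 3113 CPM in controls 1 to 4, 2745 and 2560 CPM in the others). The sum of the 6 markers of intermediate progenitors and neurons was highest in control 3 and lowest in control 4 (2589, 3255, 3292 and 1916 CPM in controls 1 to 4, 2421 and 2524 CPM in the others). Dcx made up the largest part, at 1148, 1495, 1708 and 777 CPM in controls 1 to 4. Bcl11b and Stmn2 were also highest in control 3 (387 and 370 CPM). Eomes and Tbr1 were highest in control 2 (375 and 490 CPM), and Neurog2 was lowest of the controls in control 3 (172 CPM). The genotype of control 3 and its cell makeup cannot be told apart. Against control 3 alone, the median log2 difference was -0.17 in the library labelled Foxp1cKO 1, lower for 40 of 47 genes, and -0.09 in the library labelled Foxp1cKO 2, lower for 36 of 47. Both labelled libraries were below control 3 for 33 of the 47 genes, where 38.6% of all genes were. Against control 4 the median differences were -0.38 and -0.27. The 5 mural-cell markers summed to 68.2 to 88.3 CPM in the controls and to 111 and 116 CPM in the libraries labelled Foxp1cKO, and the 7 endothelial markers to 125 to 194 and 187 and 228 CPM. Of the endothelial sum, Flt1 alone made up 12.5 to 18.1 CPM in the controls and 44.6 and 54.2 CPM in the libraries labelled Foxp1cKO. The part of the mural, endothelial, red-cell, ventral, progenitor and neuron markers in the proteasome result was not tested. The 2 libraries labelled Foxp1cKO also differed from each other, with a median of 0.11 higher in Foxp1cKO 2 and 10 of 47 genes lower there. Over all genes that median was 0.0012, and 49.8% were lower in Foxp1cKO 2.

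Genes that act with the proteasome but carry other names were counted in the same fit. Over all genes, 50.7% were below 0 and 6.5% were lower at an unadjusted p under 0.05. Among genes with a mean of at least 10 CPM these shares were 57.6% and 9.22%. Of 9 further subunits and associated factors, 8 were below 0, 3 had an unadjusted p under 0.05 and the median was -0.13. Adrm1, a ubiquitin receptor of the base, was at 51.8 to 53.2 CPM in the controls and 44.8 and 43.2 CPM in the libraries labelled Foxp1cKO (-0.26, standard error 0.07, edgeR adjusted p = 0.253). Pomp, the maturation factor of the core, was at 76.4 to 87.9 CPM in the controls and 59.9 and 70.7 CPM in the others (-0.32, standard error 0.10, edgeR adjusted p = 0.292). Usp14, a deubiquitinase of the base, was the third, with -0.17. Sem1, the smallest lid subunit, was at 93.1 to 115 CPM in the controls and 103 and 107 CPM in the others. Of 8 regulators of proteasome genes, 5 were below 0 and the median was -0.02. An unadjusted p under 0.05 was found for 1, the protease Ddi2 that activates Nfe2l1 (-0.16, standard error 0.07, edgeR adjusted p = 0.377). For a list of 8, both counts were close to those shares. Nfe2l1 itself was at 118, 132, 124 and 122 CPM in the controls and 128 and 121 CPM in the others (0.005, standard error 0.08), so its transcript did not separate the groups.

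Of 14 genes of ubiquitin supply and shuttling, 10 were below 0, with a median of -0.10. An unadjusted p under 0.05 was found for 4, all lower, against 6.5% of all genes. The unfoldase Vcp was at 444 to 485 CPM in the controls and 395 and 380 CPM in the others (-0.27, standard error 0.07), and its cofactors Ufd1 and Nploc4 had log2 fold changes of -0.32 and -0.22. The 5 genes of the VHL ubiquitin ligase, which marks Hif1a for the proteasome, were all below 0 (median -0.20), where 50.7% of all genes were. Of these, 1 had an unadjusted p under 0.05, Rbx1 at -0.21, against 6.5% of all genes. The interferon and antigen-processing genes, which in many tissues vary together with the immunoproteasome, leaned higher: 2 of 14 were below 0, the median was 0.15, and 3 had an unadjusted p under 0.05, all higher, against 6.53% of all genes. H2-K1, an antigen-presenting class I gene, was at 6.88, 5.99, 5.05 and 10.9 CPM in the controls and 16.8 and 14.8 CPM in the others (1.13, standard error 0.29, edgeR adjusted p = 0.251), and Nlrc5 was at 0.71 (standard error 0.26). Isg15 was at 1.95 (standard error 0.74), and its groups overlapped, since control 4 (0.775 CPM) lay above Foxp1cKO 2 (0.633 CPM). No gene of these 5 lists had an adjusted p under 0.05 in edgeR.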

How the data were processed

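Lateral cortex of 6 female E12.5 embryos was sequenced. Per the study's methods and the submitters' processing notes, the authors aligned stranded paired reads with STAR (mm10), assigned them to genes by the union rule of HTSeq 0.9.1, and dropped genes of low count. Their deposited table has raw counts for 17068 genes, and the authors also deposited variance-stabilized values on a log2-like scale, used here for limma only. The strand setting of the counting is not given in the sources used here. Groups and replicate numbers came from the labels, and where embryos shared a litter, p-values take no account of it. In R 4.3.3, all genes were fitted with edgeR 4.0.16 (TMM, group alone, quasi-likelihood test, Benjamini-Hochberg adjustment, threshold 0.05). Log2 CPM used a prior count of 2. DESeq2 1.42.0, limma 3.58.1, DESeq2 size factors, total counts, a filter at 10 CPM, each library left out, and a replicate block were alternatives. The longest coding transcript as length was added after seeing the data. The edgeR, DESeq2 and limma tests of group were each tried on simulated data.

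Symbols, exons and lengths came from GENCODE M21 (the mm10 assembly, another release than the authors'), with 17047 of 17068 identifiers found, 40 of the 47 members in the same version. Of the members, 9 overlap another gene's exons by over 5% and 9 have a transcript copy of at least 95% identity elsewhere, among them Psmd2, Psmc1 and Psmb5, so their counts may be split. The genes and lists were chosen with earlier results of these data known. Genes named were the 8 with the lowest unadjusted p, the catalytic subunits, the highest and lowest per length in each group, and Psmc5. Any other member is given after its values were seen. Floors reflect counting error alone, because PCR copies of a molecule are not independent. Replicate pairs differed by a chi-square of 25.9 to 193 per gene, so none was a repeat of another. Some genes of the lists are not reported here by name.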

Additional observations from a re-analysis of the deposited data

Results flagged for a closer look

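In 3 of the 47 proteasome genes, 1 control stood apart from the other 3 by more than a test for a lone value allows, which chance gives in about 1 of 20 groups. Psmc6 was at 216 CPM in control 4, above 194 to 197 CPM in the other controls. Psmb4 was at 118 CPM in control 3, below 124 to 125 CPM in the others. Psme1 was at 40.8 CPM in control 4, below 46.4 to 47.4 CPM in the others.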

How the results depend on the processing

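With DESeq2 in place of edgeR, 9 of the 47 genes passed an adjusted p of 0.05, all lower, and over all genes 503 did against 26 in edgeR. Under each of the other alternatives 0 of the proteasome genes tested did, where the limma fit called 0 and gave 27 at an unadjusted p under 0.05 and lower. The log2 fold change of Psmc5 ran from -0.56 to -0.38 over the alternatives. All genes called by edgeR numbered 14 with the filter at 10 CPM, 2 to 96 with a library left out and 0 with the replicate block. Left-out libraries gave 8 to 30 genes lower at an unadjusted p under 0.05 (8 without Foxp1cKO replicate 1) and 0 to 1 higher (Psmg4, without control replicate 4). They gave a median of -0.30 to -0.20 over all proteasome genes and -0.21 to -0.12 over activators and inhibitors, where the filter gave -0.15. The excess of the Psmb8 share in the libraries labelled Foxp1cKO ran from -0.0139 to 0.25 percentage points with a library left out and was 0.44 without division by length, and that of Psmb10 from -0.42 to 0.35. Some small differences changed sign when a library was left out: Psmb2 ran from -0.039 to 0.065 (below 0 without control 1, 2 or 3 or Foxp1cKO replicate 1), Psmg1 reached 0.0321 (above 0 without control replicate 4 or Foxp1cKO replicate 1, and at 0.0045 with the replicate block), Psmb10 ran from -0.3883 to 0.0418 and Psmb8 from -0.3415 to 0.7145, both with the sign changed without Foxp1cKO replicate 1. The cause was not tested. Whether the replicate numbers pair the embryos is not given by the labels. Deviations of same-numbered libraries correlated at -0.20 (replicate 1) and 0.02 (replicate 2) over all genes. Over the proteasome genes these values were -0.22 and 0.69. With 2 labelled libraries, their deviations from the group mean mirror each other, so these values cannot decide the pairing. With the replicate block 43 genes were lower, 23 of them at an unadjusted p under 0.05, with a median of -0.23. Depth limits Psma8, Psmb8 and Psmg3, which had at most 43 counts in a library.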
